A study of Mus musculus with 8 samples.

Results

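Megakaryocytes are the large, polyploid marrow cells that shed platelets into the blood. They mature by replicating their DNA without dividing, fill their cytoplasm with alpha granules (adhesive proteins and chemokines) and dense granules (serotonin), and carry the receptors a platelet will need to bind von Willebrand factor, collagen and fibrinogen. In bone they sit beside the marrow sinusoids, and they are known sources of growth factors that act on stromal cells.

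Cells that met the selection rule for the megakaryocyte lineage were 1459 of the 46024 cells that passed the filters, or 3.17%. The label is less sure for 439 of them, which are described below as sparse. The data were droplet single-cell RNA sequencing of bone stromal cells from C57BL/6 mice. Cells were kept with at least 500 genes and at most 25% of unique molecular identifiers (UMIs, each standing for 1 captured RNA molecule) from mitochondrial genes. A member held at least 5 UMIs of Pf4, Gp9, Itga2b and Gp1bb in sum with at least 1 of Itga2b, no UMI of the endothelial gene Cdh5, and under 20 UMIs per 10000 of the basophil protease genes Mcpt8 and Prss34. All groups were female wild-type animals: Control was unfractured bone at 12 weeks of age, and Fracture was bone taken 14 days after the left leg had been broken by three-point bending and held with an intramedullary nail at 10 weeks of age. The fractured mice were anaesthetised with ketamine hydrochloride and xylazine and given carprofen, agents the labels do not name for the controls. Femurs of both groups had been depleted of blood cells with a lineage kit and beads against CD45 and CD117, so the cells described here are those that this depletion left, not a sample of marrow.

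Each group comprised 2 preparations of 2 libraries each, and the preparation was the replicate. The labels do not say whether preparations came from separate animals, so p-values measure only the spread between preparations, which may be technical. Member counts were 1151 in Control 1, 263 in Control 2, 21 in Fracture 1 and 24 in Fracture 2. Library totals lay between 56543151 and 89126291 UMIs. The smallest barcode held 1 UMI in the Control tables and 1929 UMIs in the Fracture tables, so the tables of the groups had been cut differently. Pairs of libraries shared 11 to 25 barcodes, and no barcode was a member in both libraries of a pair. The Control 1 tables list no gene whose name starts with U, so such genes have no Control 1 value.

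The selected genes encode the surface and granule proteins for which the lineage is known. Gp9 and Gp1bb, together with Gp1ba and Gp5, form the GPIb-IX-V receptor for von Willebrand factor, Itga2b is the alpha chain of the fibrinogen receptor, and Pf4 is the platelet factor 4 chemokine of alpha granules. Gp5 and Treml1, a receptor stored in alpha granules, also mark the lineage but took no part in the selection. RefSeq promoters (GRCm38.p6, 250 bases before to 50 after the start) were found for all 7 of these genes. The letters GATAA, which the GATA factors bind, were searched on both strands, so that TTATC also counts, and they were present in 4 of the 7 promoters against 25.4% of 32851 promoters of the same length. The match is a description and not a bound site. Gp9, Gp5 and Pf4 are shown because their RNAs recur in the results, with GATAA or TTATC in capitals; the windows are chr6:87777820-87778119 on the plus strand, chr16:30310732-30311031 on the minus strand and chr5:90772185-90772484 on the plus strand, each printed along its gene's strand.
Gp9: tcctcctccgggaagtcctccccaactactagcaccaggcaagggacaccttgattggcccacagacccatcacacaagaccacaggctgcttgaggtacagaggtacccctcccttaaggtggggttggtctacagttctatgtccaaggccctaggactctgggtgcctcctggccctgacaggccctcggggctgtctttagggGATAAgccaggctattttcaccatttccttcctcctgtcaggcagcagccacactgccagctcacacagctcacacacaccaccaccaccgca
Gp5: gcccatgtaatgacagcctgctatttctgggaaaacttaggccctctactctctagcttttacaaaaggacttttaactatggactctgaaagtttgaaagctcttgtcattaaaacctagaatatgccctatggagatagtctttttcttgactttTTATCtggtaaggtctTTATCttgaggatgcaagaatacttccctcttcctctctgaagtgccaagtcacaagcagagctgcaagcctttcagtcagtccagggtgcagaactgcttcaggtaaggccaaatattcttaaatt
Pf4: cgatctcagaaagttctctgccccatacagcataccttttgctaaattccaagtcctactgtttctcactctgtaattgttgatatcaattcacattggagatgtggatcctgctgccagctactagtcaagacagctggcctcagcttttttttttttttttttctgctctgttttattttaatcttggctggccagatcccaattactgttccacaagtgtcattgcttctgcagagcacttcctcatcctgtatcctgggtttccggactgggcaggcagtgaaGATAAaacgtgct
In Gp9 the match began 43 bases before the start, in Gp5 the matches began 93 and 77 bases before it, and in Pf4 it lay 38 bases after it. Itga2b, Gp1bb and Treml1 had no match in this window. Pf4 lies 2371 bases from Ppbp, which encodes another platelet chemokine.

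The label was checked with Gp5 and Treml1. The selection genes made up a median of 145 UMIs per 10000 in all members, but the members formed a dense and a sparse mass around few cells in between: 34 members had 25 to 50 selection UMIs per 10000 and 144 had 50 to 100. A limit of 50 per 10000, chosen after the values were seen, left 1020 dense members, namely 785, 202, 17 and 16 in Control 1, Control 2, Fracture 1 and Fracture 2, and 439 sparse members, namely 366, 61, 4 and 8. A UMI of Gp5 or Treml1 was present in 96.7% of dense members, which held a median of 41 such UMIs, and in 31.4% of sparse members, whose median was 0. More than 5% of the UMIs came from stromal, osteoblast, chondrocyte, endothelial, smooth muscle and fibroblast markers in 186 sparse members (42.4%) and in 23 dense members (2.25%). The dense members therefore carried these 2 markers, which took no part in the selection. Sparse members of Control mostly did not, with either gene in 32.2% in Control 1 and 21.3% in Control 2. In Fracture either gene was present in 50% of the 4 sparse members of Fracture 1 and 62.5% of the 8 of Fracture 2. Gp5 and Treml1 are platelet genes like the selection genes. The check therefore cannot tell megakaryocytes from platelets, or from other cells that share a droplet with platelets.

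**Figure D1:**
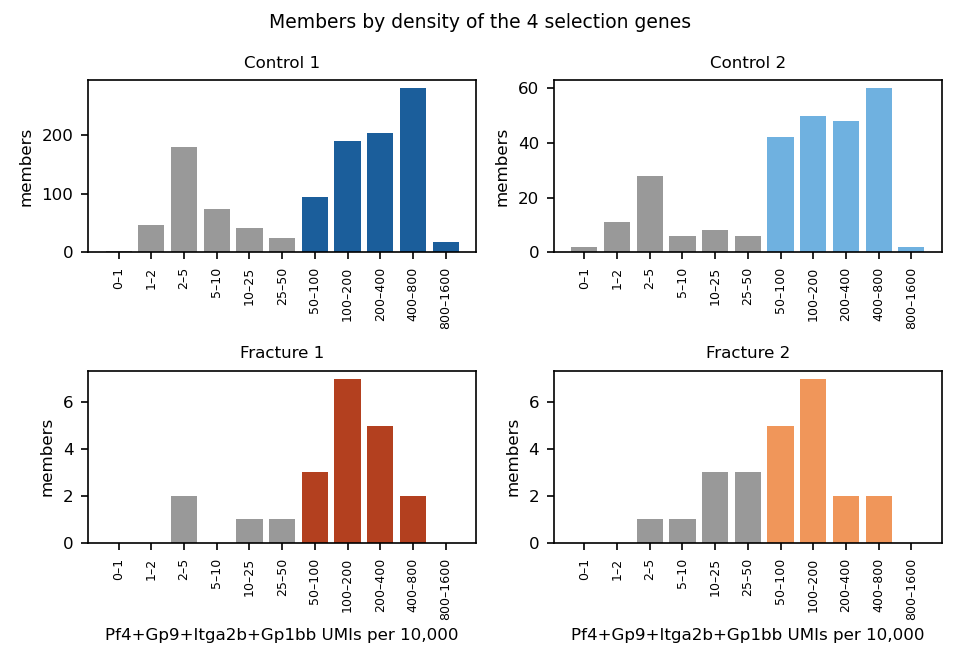
Number of members (y axis) by UMIs of Pf4, Gp9, Itga2b and Gp1bb per 10000 UMIs of the cell (x axis, bins of unequal width) in each preparation; grey bars lie under 50 per 10000 and coloured bars at or above it. The y axes differ between panels; both Control preparations show a sparse and a dense mass with a low between them at 25 to 50, where they hold 24 and 6 members, and each Fracture preparation holds at most 7 cells in a bin.

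The RNA of these genes was also found outside the members, more so in Control. After thinning every cell to 2000 UMIs, which leaves out shallower cells, Pf4 was detected in 31.3% of other cells in Control 1, 13.2% in Control 2, 1.31% in Fracture 1 and 1.38% in Fracture 2. Erythroid cells (non-members with at least 3 UMIs of the erythroid genes Klf1, Car1 and Rhd and none of Itga2b), which should lack Pf4, had it in 39.3%, 9.42%, 0.725% and 0.826%. The share in other cells was thus under that in erythroid cells in Control 1 and over it in the other preparations. Where this RNA came from was not tested. Dense members, for which Pf4 is a selection gene, had Pf4 in 99.3%, 96.6%, 100% and 100%. Over all UMIs of the class, the selection genes made up 4.98 UMIs per 10000 in the sparse members of Control 1 against 15.5 in its other cells. In Control 2 the values were 5.35 against 2.40. Other cells include those with at least 50 selection UMIs per 10000 that the Cdh5 limit alone left out, 51 in Control 1 and 11 in Control 2. They also include those that the Itga2b limit alone left out, 104 in Control 1 and 30 in Control 2. In the Fracture preparations they made up 14.5 and 17.9 per 10000 of the sparse members against 0.197 and 0.258 in other cells. Gp5 after the same thinning was present in 81.7%, 75.3%, 81.2% and 93.8% of dense members in Control 1, Control 2, Fracture 1 and Fracture 2, against 2.12%, 1.06%, 0.101% and 0.125% of other cells and 3.25%, 0.935%, 0.725% and 1.10% of erythroid cells. In dense members Gp5 was thus found far more often than in other cells and in erythroid cells of every preparation.

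Among 284 members with 5 or 6 selection UMIs, 24.3% had a UMI of Gp5 or Treml1, and among the 784 cells that missed the limit with 3 or 4 UMIs 16.8% did, values given with no test. The Cdh5 limit alone left out 136 cells, of which 66 had a dense rate, a median of 35486 UMIs and, in 52 cases, 1 Cdh5 UMI. Requiring Itga2b alone left out 568 cells, of which 138 had a dense rate and a median of 1664 UMIs. The basophil limit alone left out 816 cells. Of basophil cells (20 or more UMIs of Mcpt8 and Prss34 per 10000), 83.1%, 93.5%, 74.1% and 80% held an Itga2b UMI in Control 1, Control 2, Fracture 1 and Fracture 2. In them Pf4 was found at 0.987, 0.165, 0.05 and 0.0179 UMIs per Itga2b UMI in the 4 preparations, against 11.1, 7.52, 6.87 and 4.32 in the dense members.

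Cells that met the rule took a larger share of Control than of Fracture preparations. Members were 8.82% of passing cells in Control 1 (exact 95% interval 8.34 to 9.32) and 3.19% in Control 2 (2.82 to 3.59), against 0.177% in Fracture 1 (0.109 to 0.270) and 0.187% in Fracture 2 (0.120 to 0.278). The intervals cover counting error only. The groups did not overlap, yet Control 1 held a share well over that of Control 2, and the 2 Fracture preparations lay close together. Control averaged 6.00% ± 3.99 (SD, n = 2) and Fracture averaged 0.182% ± 0.00737 (SD, n = 2), a difference of -5.82 percentage points (two-sided exact permutation test over preparations, p = 0.33, the smallest this design allows). Dense members alone were 6.02%, 2.45%, 0.143% and 0.125% of cells. Another denominator, cells with a UMI of Ptprc, Klf1, Mcpt8 or Itga2b, was chosen after the values were seen. Over it members were 13.7%, 6.17%, 1.93% and 1.80%, and the Control over Fracture ratio fell from 33.0 to 5.34. Every member enters this denominator, since the rule requires Itga2b. Itga2b was also found in 24.1%, 17.4%, 5.02% and 5.65% of other cells, so the denominator may hold more than blood cells.

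The shares of the single libraries were 9.27% and 8.37% in Control 1, 3.05% and 3.33% in Control 2, 0.189% and 0.165% in Fracture 1, and 0.125% (8 cells) and 0.249% (16 cells) in Fracture 2. Among other blood lineages that the depletion targets, basophil cells were 12.2%, 8.41%, 0.227% and 0.195% of passing cells in Control 1, Control 2, Fracture 1 and Fracture 2, without overlap of the groups. Erythroid cells were 2.64%, 18.5%, 2.32% and 2.83%, so the groups overlapped and Control 2 stood apart. Fewer cells of the lineage in Fracture bone, more cells of other types and a different blood depletion cannot be told apart in this design. The paper reports strong increases of chondrocytes and fibroblasts after fracture, and such cells enter the denominator of all passing cells. The tables of the groups had also been cut differently, as given above.

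**Figure D2:**
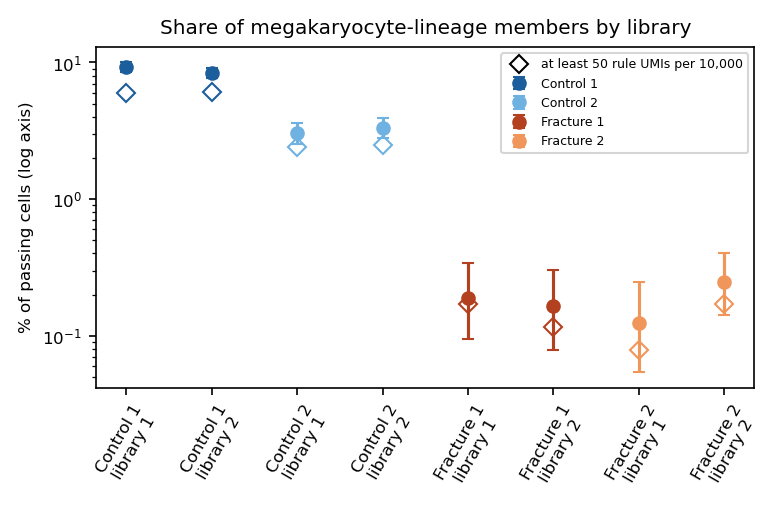
Members as a percentage of passing cells (log y axis) in each of the 8 libraries; filled circles are all members with exact 95% intervals, open diamonds are members with at least 50 selection UMIs per 10000. The 4 Control libraries lie between 3.05% and 9.27% and the 4 Fracture libraries between 0.125% and 0.249%.

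Depth is given beside the levels. The members' median was 19211 UMIs in Control 1 and 13686 in Control 2, against 7101 and 8612 in other cells. In Fracture 1 it was 14887 against 11015 and in Fracture 2 11216 against 11720. Dense members alone had medians of 21261, 9480, 14887 and 16306 UMIs in Control 1, Control 2, Fracture 1 and Fracture 2, so in Control 2 they lay close to other cells, and sparse members had 16813, 22311, 14320 and 7239. The deepest member held 230683 UMIs, and 222, 42, 1 and 3 members had more than 6000 genes, the upper limit in the published methods. The group medians overlapped, with a difference of -3397 UMIs (two-sided exact permutation test, p = 0.667, n = 2 per group), and the difference was 529 with cells of at most 6000 genes and 226 in dense members. In sum the members gave 21.6% and 5.59% of all UMIs of passing cells in Control 1 and Control 2, and 0.266% and 0.239% in Fracture 1 and Fracture 2.

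Levels below are CPM (UMIs of a gene per 1000000 UMIs) over all members of a preparation, and since the library reads the 3′ end they are compared between samples and not between genes. Where 4 values follow each other they are those of Control 1, Control 2, Fracture 1 and Fracture 2. Of the GPIb-IX-V genes, Gp5 and Gp1ba took no part in the selection, and both stood at least 10-fold above other cells, on CPM plus 1, in every preparation. Gp5 was at 1114 and 1289.7 in Control 1 and Control 2 and 1268 and 1402 in Fracture 1 and Fracture 2, with other cells at 40.5, 10.3, 0.858 and 0.765. Gp1ba was at 497, 477, 526 and 659. Gp9, used for the selection, was at 819, 625, 1076 and 743, and Gp1bb, also used, was at 1974, 1472, 2206 and 1483. The level of each gene varied less between preparations than between members and other cells. Gp1bb overlaps Sept5 on the same strand, and reads of such pairs may have been split in counting.

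Of 8 integrin and collagen receptor genes, 5 were at least 10-fold higher than in other cells throughout, the selection gene Itga2b among them. Itgb3, the partner chain of Itga2b, was at 1654 and 1576 in Control and 2004 and 2380.4 in Fracture. Clec1b, which encodes the podoplanin receptor CLEC-2, was at 2363, 2582, 3096 and 2994, and Gp6, the collagen receptor GPVI, at 174, 181, 197 and 127. Itga6, the laminin-binding chain, was at 2398 and 3174 in Control members, with 117 and 57 in other cells, so the adhesion receptors of a platelet were already present as RNA. Clec1b overlaps Clec9a in the annotation.

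Receptors for the agonists that drive the lineage or activate platelets followed. F2rl2, the thrombin receptor PAR3, was at 648, 465, 516 and 499, and in other cells at 27.8, 4.66, 0.348 and 0.261. The ADP receptor P2ry12, which lies within Med12l on the other strand, was at 144, 191, 263 and 231, so both Fracture preparations stood above both Control preparations. This held over all members, whereas the groups overlapped within each depth group of dense members given below. In the agonist receptor list 6 of 10 genes were at least 10-fold higher than in other cells in every preparation.

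The signalling genes carry the signal of these receptors to the granules and the cytoskeleton. Treml1 was at 1577 and 1413 in Control and 1690.4 and 1245 in Fracture, Rgs18, a brake on G-protein signalling, at 1079, 1039, 1066 and 1265, and Fermt3, the kindlin that activates platelet integrins, at 1378, 1195, 1369 and 1508. Among 19 signalling genes 13 were at least 10-fold above other cells throughout. Pf4, a selection gene, was at 28689, 21518, 22259 and 17369.8, and its neighbour Ppbp, not used for the selection, at 7377, 4142, 7739 and 6317. Vwf was at 917, 992, 1249 and 1316, and Slc6a4, the serotonin transporter of the cell surface, at 689.8, 1027, 1106 and 1473. Only 5 of 20 alpha granule genes, the selection gene Pf4 among them, were at least 10-fold above other cells throughout, and the list also holds widely expressed cargo. Serpine2, a thrombin inhibitor, was at 659 and 437 in Control members and 647 and 443 in other cells.

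The cytoskeletal and nuclear genes of the lineage were less particular. Tubb1, the beta-1 tubulin of platelets, was at 80.4 and 164 in Control and 151 and 208 in Fracture, against 2.67, 1.14, 0.0851 and 0.194 in other cells, and it was with Zyx, an actin-associated protein, 1 of 2 genes of 17 in the cytoskeleton list at least 10-fold higher throughout. Of 22 transcription factors Nfe2 alone was. Gata1, required for megakaryocyte maturation, was at 213, 267, 239 and 193, Nfe2, required for platelet release, at 387, 483, 457 and 469, and Fli1, an ETS factor, at 486, 490.3, 476 and 565. Control and Fracture values overlapped for all of Gata1, Nfe2 and Fli1. Alox12, the platelet lipoxygenase, was at 1034, 973, 1313 and 1239.6. Lyz2, known as a myeloid gene, was at 489, 357, 510.3 and 588 in members and 43.3, 34, 16.2 and 15.3 in other cells.

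**Figure D3:**
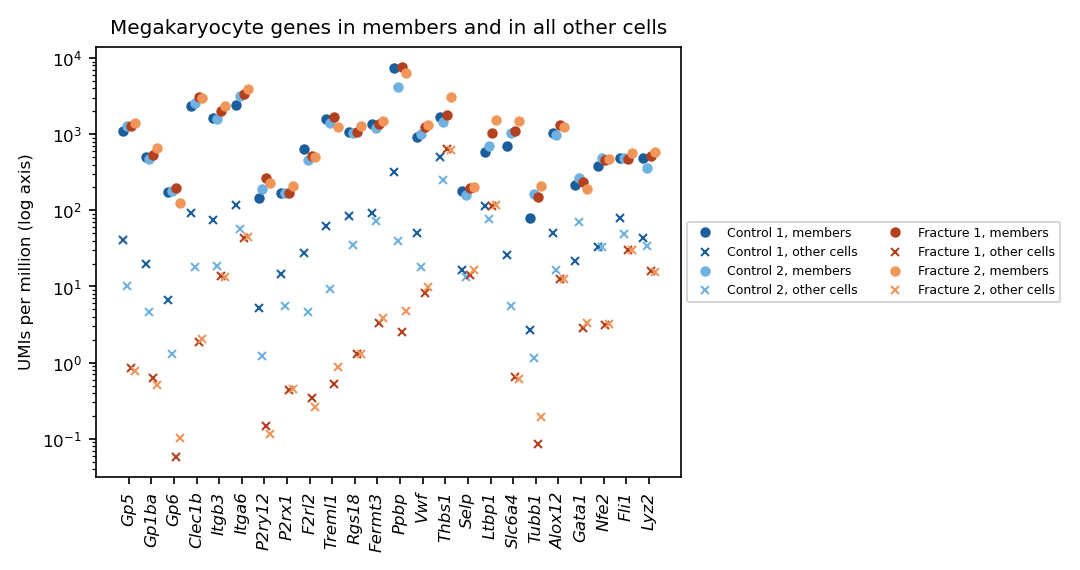
Level of 24 genes in CPM (log y axis) in members (circles) and all other cells (crosses) of each preparation. Each circle stands above the cross of its own preparation; the cross of Gp5 is at 40.5 in Control 1 and at 0.858 in Fracture 1.

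Outside the lists, the 10 genes with the largest ratio of members to other cells were AI504432, Cd84, Ly6g6f, Ubash3b, Pls1, Slc2a3, Hmha1, F10, Mrvi1 and Dok2, with median ratios from 347 down to 107. This is a description, since the cells were selected from the same profiles. AI504432 was at 734, 1170.5, 1212 and 1387 CPM in Control 1, Control 2, Fracture 1 and Fracture 2. In other cells it was at 31.9, 13.6, 0.979 and 0.328. Its ratio was thus far lower in Control than in Fracture, and its median ratio does not describe each preparation. Cd84, a receptor of the SLAM family, was at 509, 745, 906 and 961 in the same order, and Ly6g6f, a platelet surface protein, at 416, 349.7, 489 and 347. Slc2a3, the glucose transporter GLUT3, was at 728, 1039, 1047 and 1597. F10, which encodes coagulation factor X, was at 348, 304, 295 and 266. Ubash3b has no Control 1 value, and its median ratio of 152 is over the other 3 preparations.

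Within the dense members, cells were ranked by UMIs in each preparation and cut into 3 groups of equal number. In Control 1 the groups had medians of 3057, 21251 and 62335 UMIs per cell, and in Control 2 of 2353, 9417 and 42266, with 261 or 262 and 67 or 68 cells; each Fracture group held 5 or 6 cells. These are descriptions with no test, and Pf4 is itself a selection gene. From the shallow to the deep group of Control 1, Pf4 was at 22669, 15376 and 43285 CPM, and in Control 2 at 26816, 14318 and 30700.1. Selp, the P-selectin of alpha granules, was at 114, 130.3 and 260.2 in Control 1 and at 111, 129 and 226 in Control 2. Serpine2 was at 444, 339 and 879 in Control 1 and at 333, 214 and 624 in Control 2. These 3 genes had their highest level in the deep cells of both Control preparations. Ppbp was instead highest in the shallow cells, at 11999, 5580 and 10309 in Control 1 and 9212, 5302 and 5224 in Control 2. So was Cd9, at 9084, 5830 and 5425 in Control 1 and 6166, 4213 and 4709 in Control 2. Thbs1 was lowest in the deep cells, at 3072, 3367 and 1552 in Control 1 and 2566, 2327 and 1718 in Control 2. Nbeal2 was also lowest there, at 403, 312 and 85.4 in Control 1 and 450, 778 and 176 in Control 2. The genes of the alpha granule list thus did not move together with depth. The summed alpha granule list made up 579, 401 and 687 UMIs per 10000 in Control 1 and 516, 341 and 500 in Control 2.

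Another set was highest in the middle group. Gata2, a factor of early stages, was at 325, 659 and 118 in Control 1 and 351, 576 and 268 in Control 2 from shallow to deep cells. Nfe2 was at 433, 997 and 323 in Control 1 and 438, 721 and 572 in Control 2, and Slc6a4 at 1040.1, 2113 and 480.5 in Control 1 and 836, 2238 and 1121 in Control 2. The same order of middle above deep held for Gata2 in Fracture, at 410, 533 and 112 in Fracture 1 and 463, 554 and 257 in Fracture 2. The deepest cells of Control thus carried more Pf4 and Selp per UMI and less Gata2, Nfe2 and Slc6a4 than the middle cells. Erythroid markers were also higher in the middle than in the deep cells of Control. They made up 39.8 against 10.1 UMIs per 10000 in Control 1 and 21.8 against 10.7 in Control 2. In Fracture 2 the order was reversed, at 7.30 against 96.4. Their part in this contrast was not tested.

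The shallow cells of Control and Fracture gave different values, which were not tested. Myl9, a myosin light chain, was at 1768, 655 and 574 in Control 1 and 1449.5, 809.9 and 352 in Control 2, and at 293, 454 and 966 in Fracture 1 and 132, 473 and 654 in Fracture 2. Tmsb4x, an actin-binding peptide abundant in platelets, was at 61681, 32282 and 36224 in Control 1 and 50172, 30145 and 26212 in Control 2, against 11773, 24050 and 35804 in Fracture 1 and 7733, 21441 and 30314 in Fracture 2. In Control both were highest in the shallow cells, and in Fracture the shallow cells were lowest. Markers of other cell types moved with this contrast: stromal markers made up 484 and 231 UMIs per 10000 in the shallow cells of Fracture 1 and Fracture 2 against 24.8 and 7.66 in those of Control 1 and Control 2, and chondrocyte markers 46.9 and 254 against 18.7 and 1.93. Their part in it was not tested. The shallow Fracture groups hold 5 cells each, and they begin at 1981 and 3697 UMIs where the Control groups begin at 658 and 859.

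**Figure D4:**
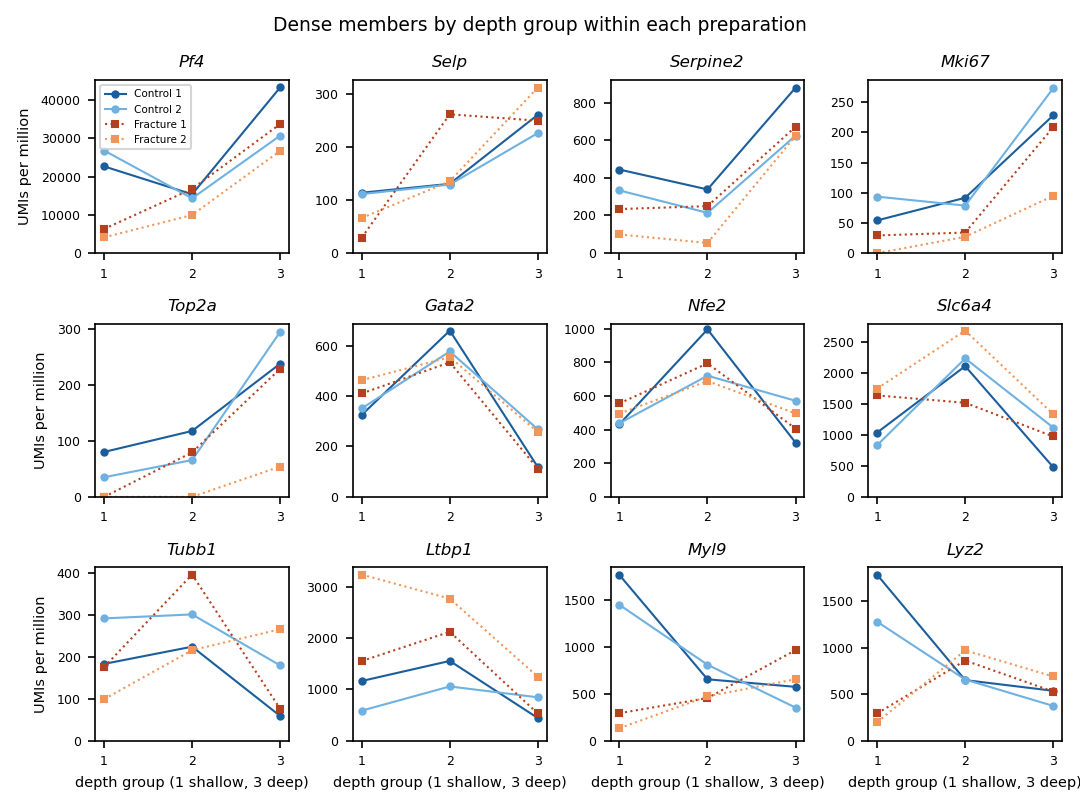
CPM of 12 genes in dense members (y axis, from 0) for the shallow (1), middle (2) and deep (3) group of cells by UMIs (x axis) in each preparation; circles with solid lines are Control, squares with dotted lines Fracture. Pf4, Selp and Mki67 are highest in the deep group of both Control preparations, and Gata2, Nfe2 and Slc6a4 in the middle group.

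Within the dense members of Control, cell cycle RNA was highest in the deepest cells. Mki67 and Top2a mark cells in the S to M phases, which megakaryocytes also enter when they add copies of their genome. Over the 3 depth groups Mki67 was at 54.2, 91.6 and 228 CPM in Control 1 and 93.5, 78.7 and 273 in Control 2. After thinning each dense member to 2000 UMIs, a UMI of either gene was present in 11.1%, 14.1% and 31.3% of the shallow, middle and deep cells of Control 1, and in 16.3%, 14.9% and 29.4% in Control 2. The deep dense groups had the highest share in both preparations, in cells brought to 1 depth, whereas over all members of Control 1 the middle group had 29.9% and the deep group 28.1%. The presence of these RNAs is not read here as division.

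Over all members with at least 2000 UMIs, the thinned share with Mki67 or Top2a was 24.4% in Control 1 (262 of 1072 cells), 30.5% in Control 2 (73 of 239), 20% in Fracture 1 (4 of 20) and 8.33% in Fracture 2 (2 of 24), with 79, 24, 1 and 0 shallower members left out. Both Fracture values lay under both Control values, a difference of -13.3 points (two-sided exact permutation test, p = 0.33, n = 2 per group, the smallest possible). Thinned to 1000 UMIs the shares were 19.1%, 22.9%, 23.8% and 8.33%, so the groups overlapped and Fracture 1 was the highest. Without thinning the shares were 40.3%, 43.3%, 42.9% and 29.2% and the groups overlapped. With thinning, the dense members had 19.6%, 20.8%, 18.8% and 0%; the last was 0 of 16 cells, for which a count of 0 allows a thinned share with a UMI of up to 18.8% (exact 95% interval up to 20.6%), and without thinning 4 of these 16 cells held such a UMI. Sparse members had 34.1%, 59.0%, 25% and 25%, and they supplied 122 of the 262 such cells in Control 1 and 36 of the 73 in Control 2. Other cells had 17.2%, 33.8%, 10.1% and 11.1%, and erythroid cells 76.9%, 94.5%, 78.3% and 84.0%.

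In a fit of Fracture against Control over UMIs summed per preparation, no gene of 11089 tested was called in members, or 0% (edgeR quasi-likelihood test, Benjamini-Hochberg adjusted p under 0.05). The lowest adjusted p was 0.386, and 1379 genes had an unadjusted p under 0.05, 6.49% higher and 5.94% lower in Fracture. DESeq2 called 338 of the 12451 genes it gave an adjusted p, 2.05% higher and 0.667% lower. Whether groups overlap is counted below on the TMM-normalised CPM of the fit, while the levels printed are plain CPM. Groups did not overlap upward for 22.5% and downward for 28.8% of all genes (17.6% and 34.8% on plain CPM), and the median log2 fold change over all genes was -0.038. The differences below are therefore given as values that did not pass the correction. They rest on 21 and 24 Fracture cells, and fold changes are log2 of Fracture over Control with the standard error of the fit. Since UMIs are summed, deep cells weigh more. The deepest member held 84509 of the 376252 member UMIs of Fracture 1 and 51921 of the 394477 of Fracture 2.

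AP-1 and immediate early genes, which are switched on within minutes of many stimuli, had higher values in Fracture members. Nr4a1, a nuclear receptor of this class, was at 156 and 53.4 CPM in Control 1 and Control 2 and at 444 and 456 in Fracture 1 and Fracture 2, with no overlap (log2 fold change 2.24 ± 0.55). In other cells it was at 83, 17.4, 63.4 and 65.4. Junb was at 667, 615, 1316 and 1686 (1.37 ± 0.25), with other cells at 651, 336, 1135 and 1041. Egr1, a zinc-finger factor, was at 329.6, 281, 739 and 606 (1.26 ± 0.19). Fosb was at 206, 122, 404 and 565 (1.71 ± 0.37). Of the 11 genes in the list 10 were higher without overlap, 8 had an unadjusted p under 0.05 and the median log2 fold change was 1.26, which was 0.68 without Fracture 2. DESeq2 called 5 of them, against 2.05% of its genes called higher. In dense members 9 of 11 were higher without overlap, against 21.1% of all genes, with a median of 1.28. The list varied with depth. From shallow to deep dense members it made up 24.4, 68.0 and 31.9 UMIs per 10000 in Control 1 and 10.4, 34.4 and 31.7 in Control 2. It made up 104, 13.4 and 65.6 in Fracture 1 and 66.4, 80.8 and 73.1 in Fracture 2. The groups thus overlapped in the middle cells. The middle cells of Control 1 (median 21251 UMIs) lay near the deep cells of Fracture 1 (median 23700 UMIs) by their medians only. Those deep cells ranged from 17765 to 84509 UMIs, and their summed value leans on the deepest cell.

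The summed list was also higher in the other cells of Fracture. It stood at 4142 and 3131 CPM in Control members and 6153 and 7689 in Fracture members, and at 5335, 2542, 6890.2 and 6571 in other cells. The part of a change shared by all cells in the members' values was not tested.

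Genes of the S and G2M phases had lower values in Fracture members. Plk1, a mitotic kinase, was at 40.8 and 62.2 in Control and 10.6 and 2.54 in Fracture (log2 fold change -2.86 ± 0.59). Ccnb2, a mitotic cyclin, was at 94.3, 103, 47.8 and 35.5 (-1.12 ± 0.23). Cenpe, a kinetochore motor, was at 71, 88.3, 31.9 and 10.1 (-1.82 ± 0.49), and Mcm6, part of the replicative helicase, at 88.1, 99.4, 55.8 and 35.5 (-0.92 ± 0.26). For each of these 4 genes the groups did not overlap, but the Fracture levels rest on few molecules: 4 and 1 UMIs of Plk1, 12 and 4 of Cenpe, 18 and 14 of Ccnb2, and 21 and 14 of Mcm6 in Fracture 1 and Fracture 2. In the G2M list 17 of 18 genes were lower without overlap, 11 had an unadjusted p under 0.05, DESeq2 called 4 (0.667% of its genes were called lower) and the median was -1.32. In the S phase list 14 of 16 were lower without overlap, with a median of -0.88. Of these 16 genes 4 had an unadjusted p under 0.05, and DESeq2 called 0. Without Fracture 1, the G2M median was -2.03 and the log2 fold change of Cenpe -2.88. With members of at most 6000 genes the medians were -0.13 and -0.23 and the log2 fold change of Ccnb2 was 0.082, while Plk1 was at -1.34 and the AP-1 and immediate early median at 0.89. The size of the cycle medians thus depends on the members over that limit, which are 222 and 42 in Control and 1 and 3 in Fracture. Both summed cycle lists were also lower, without overlap, in the other cells of Fracture. There the G2M list stood at 965.02 and 2676 CPM in Control and 593 and 611 in Fracture. The S phase list stood at 541 and 2008 against 301 and 301. The part of a difference shared by all cells in the members' cycle values was not tested.

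**Figure D5:**
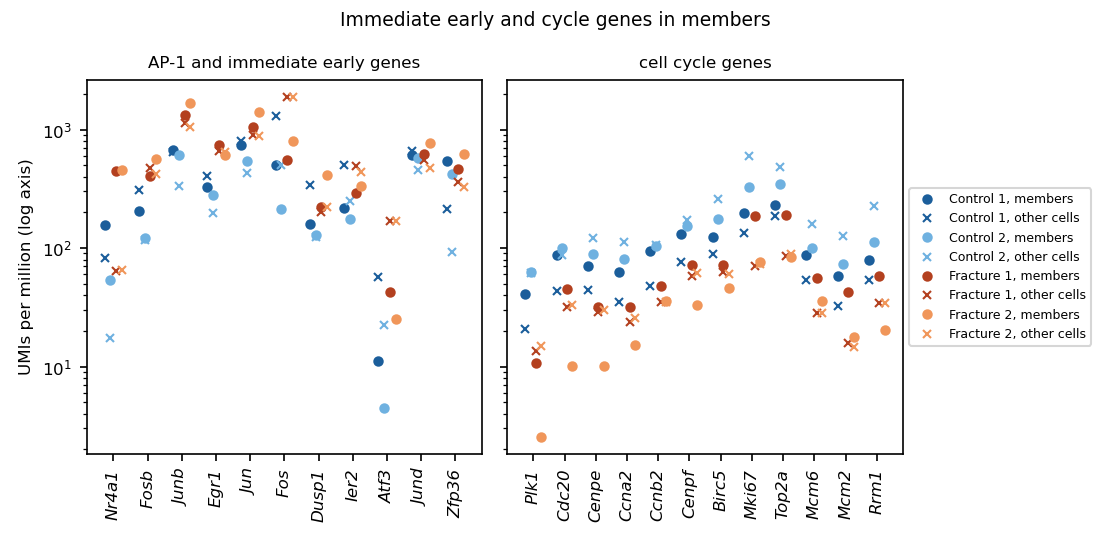
CPM (log y axis) of AP-1 and immediate early genes (left) and cell cycle genes (right) in members (circles) and other cells (crosses) of each preparation. Nr4a1 and Junb are higher in both Fracture preparations than in both Control preparations in members, and the cycle genes are lowest in Fracture 2, where Plk1 is at 2.54.

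Over all members, lineage lists had median log2 fold changes smaller in size than the lists above. With members of at most 6000 genes, that of GPIb-IX-V was larger in size than those of the cycle lists. The median log2 fold change was 0.36 for the GPIb-IX-V list, of which Gp9 and Gp1bb are selection genes. There 3 of 4 genes were higher without overlap on the scale of the fit, but Gp1ba alone was on plain CPM. The median was 0.48 for integrins and collagen receptors, where 6 of 8 genes were higher without overlap, Itga2b among them. The median was 0.43 for the cytoskeleton list (8 of 17), 0.28 for signalling adaptors (8 of 19, but 4 on plain CPM) and 0.25 for alpha granule cargo (7 of 20). DESeq2 gave medians of 0.34, 0.46, 0.42, 0.26 and 0.23 for these 5 lists in the same order. Its median over all genes was 0.41, so these lists lay near or under that of all genes. With members of at most 6000 genes the medians were -0.28 for GPIb-IX-V, -0.15 for signalling adaptors, -0.088 for alpha granule cargo, -0.083 for the cytoskeleton and 0.086 for integrins. Without Fracture 2 they were 0.21 for GPIb-IX-V, 0.068 for signalling adaptors, 0.14 for alpha granule cargo, 0.17 for the cytoskeleton and 0.25 for integrins, and without Control 2 that of alpha granule cargo was 0.037. No direction of these lists is therefore given.

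Single lineage genes stood further apart. Itga2, the collagen-binding integrin chain, was at 51 and 51.4 in Control and 82.4 and 104 in Fracture (log2 fold change 1.01 ± 0.26). Ltbp1, which binds latent TGF-beta, was at 579, 693, 1034 and 1541 (1.17 ± 0.31), Wipf1, a partner of the actin regulator WASP, at 148, 149.9, 223 and 349.8 (1.10 ± 0.31), and P2ry12 had a log2 fold change of 0.69 ± 0.22. Lmo2, a bridging factor of the GATA complex, was at 213, 232, 162 and 119 (-0.54 ± 0.20). For none of these genes did the groups overlap over all members. For Ltbp1 they did in the deep dense members, at 440 and 845 in Control and 529 and 1246 in Fracture. For P2ry12 they did in every depth group of dense members. In the shallow cells it was at 266 and 298 in Control and 322 and 297 in Fracture. The values were 456 and 312 against 613 and 432 in the middle cells, and 93.9 and 224 against 132 and 194 in the deep cells. Without Fracture 2 the log2 fold changes were 0.67 for Itga2, 0.68 for Ltbp1 and 0.56 for Wipf1, without Fracture 1 that of Lmo2 was -0.81, and with members of at most 6000 genes that of P2ry12 was 0.10. For the markers outside the selection the log2 fold changes were 0.29 ± 0.22 for Gp5 and 0.09 ± 0.21 for Treml1, and both signs turned with members of at most 6000 genes. Among 22 transcription factors 3 were higher and 3 lower without overlap (1 and 7 on plain CPM), and the median was -0.036, close to that of all genes.

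Of the 9 progenitor genes tested, 3 were higher and 5 lower without overlap (3 and 2 at an unadjusted p under 0.05), with a median log2 fold change of -0.67; in dense members 3 were higher and 3 lower, against 21.1% and 27.2% of all genes, and the median was 0.15. With preparations left out the median lay between -1.64 without Control 1 (5 genes tested) and 1.84 without Control 2 (2 genes tested). Slamf1, a SLAM receptor also carried by blood stem cells, was at 130.3, 159, 218 and 190.1 (log2 fold change 0.62 ± 0.20). Kit was at 4.86 and 4.95 in dense members of Control and was not detectable at the depth of those of Fracture, and Cd34 was at 11.4, 5.57, 0 and 9.21 in dense members of the 4 preparations, with other cells at 78.4, 56.6, 70.7 and 69.4. Cd34 was thus lower in dense members than in other cells of each preparation, and CD117, the product of Kit, was a target of the depletion. Ifit1, an interferon-induced gene, was at 104, 151, 231 and 215 (0.94 ± 0.26), while 1 of the 10 interferon-stimulated genes tested was higher and 1 lower without overlap, with a median of 0.055 that was -0.56 without Fracture 1 and 0.40 without Fracture 2. With members of at most 6000 genes the log2 fold changes were 0.070 for Slamf1 and 0.35 for Ifit1.

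Markers of other cell types moved with the groups and are given beside these results. The 7 chondrocyte markers were all higher in Fracture members without overlap (6 on plain CPM); their summed level was 828 and 178 CPM in dense members of Control and 4261 and 6645 in those of Fracture, and 24309, 11727, 67142 and 66084 in other cells. Of the 9 stromal markers 1 was higher and 4 lower without overlap, with a median log2 fold change of -0.91 (0.15 over the 4 genes tested without Control 1, and -2.22 without Fracture 2), and in dense members 4 of the 7 tested were higher and 0 lower. Col3a1, a collagen of stroma and the gene that was higher in members, was at 20.5 and 3.65 in Control members and 1106 and 1303 in Fracture members (log2 fold change 6.75 ± 0.98), and at 238, 108, 2863 and 2836 in other cells. The 6 basophil and mast markers tested were all lower in Fracture members, at 172 and 327 against 13.3 and 17.7 in sum. Mcpt8 and Prss34, which the selection rule limits in members, belong to this list, so its level in members was bounded by the rule. The osteoblast markers were lower without overlap in 5 of 7 cases and higher in 0, with a median log2 fold change of -2.82, whereas in dense members 1 was higher and 1 lower, with a median of -0.18 and overlapping sums of 963, 1172, 1756 and 565 CPM. The 4 neutrophil markers tested were all lower, with sums over the whole list of 444, 934, 45.2 and 76.1 in members and 58.3, 24.1, 47 and 24.6 in dense members. Cxcl12, the stromal chemokine, was at 276, 158, 29.2 and 27.9 in members and 2904, 2643, 155 and 181 in other cells, and overlapped in dense members, at 114, 29.9, 34.5 and 6.14. Hbb-bs, a globin, was at 517, 412, 128 and 2991, high in Fracture 2 alone. The chondrocyte and basophil sums and Col3a1 thus differed in the same direction in members and in other cells. Their part in the results was not tested.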

How the data were processed

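Droplet 3′ single-cell libraries (8, from 4 preparations) of depleted mouse bone stromal cells were analysed from the raw UMI counts per gene and barcode that the authors deposited. The submitters' processing notes name bcl2fastq 2.19.1.403, UMI-tools 1.0.0, STAR 2.7.3a, featureCounts 1.6.4 and mm10; whether counting used strand is not given in the sources used here. The published methods describe a filter on empty droplets (EmptyDrops) for libraries counted with STARsolo, and whether it was applied to these tables is not given. Members and gene lists (27) were chosen with earlier results of these data known. Named genes were those of the lists, the 10 outside them most enriched in members with at least 50 CPM, and called genes, of which there were none. UMIs of members were summed per preparation and tested with edgeR 4.0.16 (TMM, filterByExpr, quasi-likelihood test, Benjamini-Hochberg); DESeq2 1.42.0, other limits and left-out preparations were alternatives. Shares, medians and cycle shares were compared by two-sided exact permutation over preparations. Scripts were tested on simulated data. Doublets were kept: Scrublet (scanpy 1.11.5) marked 568 cells, 17 of them members, but it marked 3, 5 and 3 cells in 3 Fracture libraries and did not work there. Coordinates came from GENCODE (GRCm38) and promoters from RefSeq. Some genes of the lists are not reported here by name.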

Additional observations from a re-analysis of the deposited data

How the results depend on the processing

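The lower share of members in Fracture kept its direction under every alternative tried; the difference was -8.83 percentage points with 3 UMIs in sum, and it lay between -8.64 and -3.00 with 1 preparation left out, where without Control 1 the Control over Fracture ratio was 17.5, against 5.34 over cells with a UMI of Ptprc, Klf1, Mcpt8 or Itga2b, a denominator chosen after seeing the data. The difference in the share with Mki67 or Top2a was -5.82 points without thinning and -4.93 when thinned to 1000 UMIs, with a range of -19.2 to -7.49 when preparations were left out. The difference in median UMIs turned to 529 with at most 6000 genes and 226 in dense members, an alternative chosen after seeing the data, and ranged from -6160 to -635 with preparations left out. Counts of called genes were 338 with DESeq2, 646 with no filter on low counts (44 with names starting with U), 9 with the 8 libraries as samples, and 269 with DESeq2 without names starting with U, the last also chosen after seeing the data. Leaving out 1 preparation gave 0 to 386 calls, namely 294 without Control 1, 386 without Control 2 (131 with names starting with U) and 0 without either Fracture preparation; the lone sample is assumed to vary like the others. The remaining alternatives called 0 genes with edgeR, among them dense members, members without doublets and members of at most 6000 genes, where 498 genes had an unadjusted p under 0.05. The cause of these differences was not tested.

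The labels do not say whether preparation numbers pair the samples. The correlation of same-numbered deviations from the group mean was 0.030. It cannot decide this, since with 2 preparations per group both pairs give the same value, and the Fracture deviations rest on 21 and 24 cells. With the number as a replicate block edgeR called 0 genes, with 1197 at an unadjusted p under 0.05 against 1379 without the block. Fold changes that turned sign were those of Gp5 (-0.11) and Treml1 (-0.15) with at most 6000 genes, of Treml1 with no filter (-0.020), at least 10 UMIs (-0.11), dense members (-0.035) and 1 preparation left out (-0.17 without Fracture 1 to 0.16), and of Ccnb2 (0.082) with at most 6000 genes. Depth limits the Fracture values, which rest on 21 and 24 cells.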
